A study of Homo sapiens with 18 samples.

Results

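Transcripts of 9 neuroendocrine genes were followed in LNCaP cells, an androgen-sensitive human prostate adenocarcinoma line with luminal features, under 6 conditions. The genes were chosen by name: the granins CHGA, CHGB, SCG2 and SCG3, the synaptic vesicle protein SYP, the adhesion molecule NCAM1 and the regulators INSM1, SRRM4 and REST. A row with the symbol was found for 8 of the 9 among 20145 genes in the table of counts. INSM1, a zinc finger factor of the endocrine lineage, was not analysed here. Each condition had 3 libraries of messenger RNA, taken after 72 h with DMSO as vehicle, with 2-77 at 1 µM, with ACBI at 0.2 µM, with BD98 at 2 µM, with P-16 at 10 µM or with ENZA at 10 µM. All cells were the same line, grown with serum. ENZA is enzalutamide, an antiandrogen, and the series as a whole is about inhibitors of the BRD7 bromodomain in prostate cancer. No target is stated in the labels for the other 4 compounds. The compounds were used at different doses except P-16 and ENZA, so nearly every contrast between compounds is also one between doses. Nothing states that the replicates were grown apart, and the p-values therefore measure the spread between these libraries, which may be technical.

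Neuroendocrine cells store peptide hormones in dense-core granules, and granins are the acidic proteins that fill those granules. Prostate adenocarcinoma under androgen-directed therapy can take on neuroendocrine features, for which CHGA, SYP and NCAM1 (CD56) are the usual tissue markers. REST is a zinc finger repressor that binds RE1 elements and recruits HDAC and KDM1A complexes to keep neuronal genes off in other cells. SRRM4 is a neural splicing factor that promotes microexon inclusion, and it acts on REST transcripts to give a truncated protein. Counts per gene, as used here, do not tell such isoforms apart.

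The genes lie on different chromosomes of hg38. In the deposited coordinates CHGA spans chr14:92923150-92935285 (plus strand), CHGB chr20:5911510-5925353 (plus), SCG2 chr2:223596940-223602361 (minus) and SCG3 chr15:51681353-51721026 (plus). SYP spans chrX:49187815-49200193 (minus), NCAM1 chr11:112961420-113278436 (plus), SRRM4 chr12:118981541-119163051 (plus) and REST chr4:56907900-56935844 (plus). Promoters from 250 bases before to 50 bases after the start were matched in RefSeq (GRCh38.p14) for 5 of the 9 genes, namely CHGA, SCG3, SYP, SRRM4 and REST.

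The promoter of SCG3 (chr15:51681253-51681552, plus strand) is shown because SCG3 had the largest fold change of the 4 genes tested. Capitals mark matches to the core parts of the RE1 motif, CAGCACC and GGACAG, which did not have its canonical spacing here.
SCG3: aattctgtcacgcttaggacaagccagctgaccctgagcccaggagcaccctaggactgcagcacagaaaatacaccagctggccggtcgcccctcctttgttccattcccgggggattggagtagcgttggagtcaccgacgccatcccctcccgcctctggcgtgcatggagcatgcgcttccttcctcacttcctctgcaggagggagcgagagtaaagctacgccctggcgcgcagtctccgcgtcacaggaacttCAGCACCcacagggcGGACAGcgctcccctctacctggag
The RefSeq start used for this window is 51681503, downstream of the deposited start given above. From the RefSeq start, the CAGCACC match began at offset 10 and GGACAG at offset 25 on the same strand, with 8 bases between them. Searched on both strands, CAGCACC was present in 7.75% and GGACAG in 20.5% of 35116 promoters of this length. Both in this order on 1 strand, 0 to 20 bases apart, were present in 0.191% of promoters (67 of 35116), and the canonical spacing of 2 bases in 0.0513%. SCG3 also held 2 CANNTG boxes, a motif present in 68.7% of promoters. These matches describe letters in the window and not binding, which was not measured.

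The promoter of CHGA (chr14:92922900-92923199, plus strand) is shown because CHGA is the standard tissue marker of the lineage. Capitals mark a cyclic AMP response element, the core TGACGT read on both strands.
CHGA: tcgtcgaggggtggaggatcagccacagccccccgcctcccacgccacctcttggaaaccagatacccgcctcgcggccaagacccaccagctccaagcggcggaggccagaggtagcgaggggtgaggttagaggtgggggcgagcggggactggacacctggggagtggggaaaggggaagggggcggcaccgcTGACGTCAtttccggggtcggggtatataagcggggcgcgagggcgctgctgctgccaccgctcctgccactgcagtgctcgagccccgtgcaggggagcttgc
The core was at offset -54 on the plus strand and, as a palindrome, at offset -52 on the other, and it was present in 7.98% of promoters. The promoter of SYP (chrX:49200144-49200443, minus strand) is shown because SYP had the most counts of the markers. None of the RE1 parts, the TGACGT core or TATAAA was in this window, so no letters are in capitals.
SYP: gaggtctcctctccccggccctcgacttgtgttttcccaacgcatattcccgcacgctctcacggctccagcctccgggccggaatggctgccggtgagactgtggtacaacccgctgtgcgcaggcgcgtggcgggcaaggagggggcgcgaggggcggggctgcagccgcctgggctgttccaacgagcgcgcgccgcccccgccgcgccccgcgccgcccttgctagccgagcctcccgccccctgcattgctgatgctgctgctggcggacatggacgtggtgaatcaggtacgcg
GC content was 62% in the SCG3 window, 69.3% in that of CHGA and 71.3% in that of SYP, against a median of 58.7% over all promoters. The windows held 18, 24 and 35 CpG dinucleotides, against a median of 14.

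Library depth was 16835113 to 36975052 counts. A count of 3, used as the floor for a value of 0, is 0.0376 to 0.0503 CPM (counts-per-million units, scaled to library size) over the 3 libraries of a group. ACBI replicate 3 stood apart, with 8.6% of its counts in ribosomal RNA genes against 0.639% to 2.09% in the other 17 libraries, and the ACBI fold changes against DMSO of SYP, SCG3 and REST and the gene list counts are given with and without it. The share of all genes called without it is not given here, so changes in those list counts cannot be set against a general shift. Luminal markers were expressed in every library, with KRT8 at 399.3 to 588.1 CPM. Of the 4 basal markers, 2 had a row, and they summed to at most 2.15 CPM. Immune markers, 3 of 4 with a row, summed to at most 0.436 CPM, and PTPRC (CD45) had 2 counts over all libraries. Mesenchymal markers, 4 of 5 with a row, summed to 986.1 to 1002.9 CPM in DMSO and 2334.0 to 2712.0 CPM in ACBI. Nearly all of this sum was FN1, while ZEB1 stayed at or under 0.229 CPM. The 3 that were tested went different ways with ACBI, where 72.0% of all genes were called. FN1 rose, VIM fell from 13.1 to 5.51 CPM, and COL1A1, at 13.4 and 12.4 CPM, was not called. As these are bulk libraries, more cells with a transcript and more RNA per cell cannot be told apart.

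Granin and SRRM4 transcripts were at or near the floor in the vehicle cells. SYP, SCG3 and REST rose with ACBI, and NCAM1 rose with 2-77, a call that rested on single libraries. Of the 8 genes with a row, 4 (SCG3, SYP, NCAM1 and REST) passed the filter on low counts and were tested with edgeR's quasi-likelihood test, with p-values adjusted over 15422 genes. SCG3 passed that filter through the 3 ACBI libraries alone, so it had to differ, and its call adds no support. Against DMSO, 3 of the 4, SCG3 among them, rose with ACBI, where 72.0% of all genes tested changed and 35.4% rose. With 2-77, 1 of the 4 rose, where 40.7% of all genes changed and 20.5% rose. None of the 4 passed the threshold with BD98, P-16 or ENZA, where 49.0%, 24.0% and 36.3% of all genes did, and at an unadjusted p under 0.05 the count was 0 for each of these compounds, as was the count by adjusted p with DESeq2, which gave none for SCG3 with P-16. The scaling makes each change relative to the other genes, whose median log2 fold change was -0.01 with ACBI and 0.00 with 2-77.

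**Figure D1:**
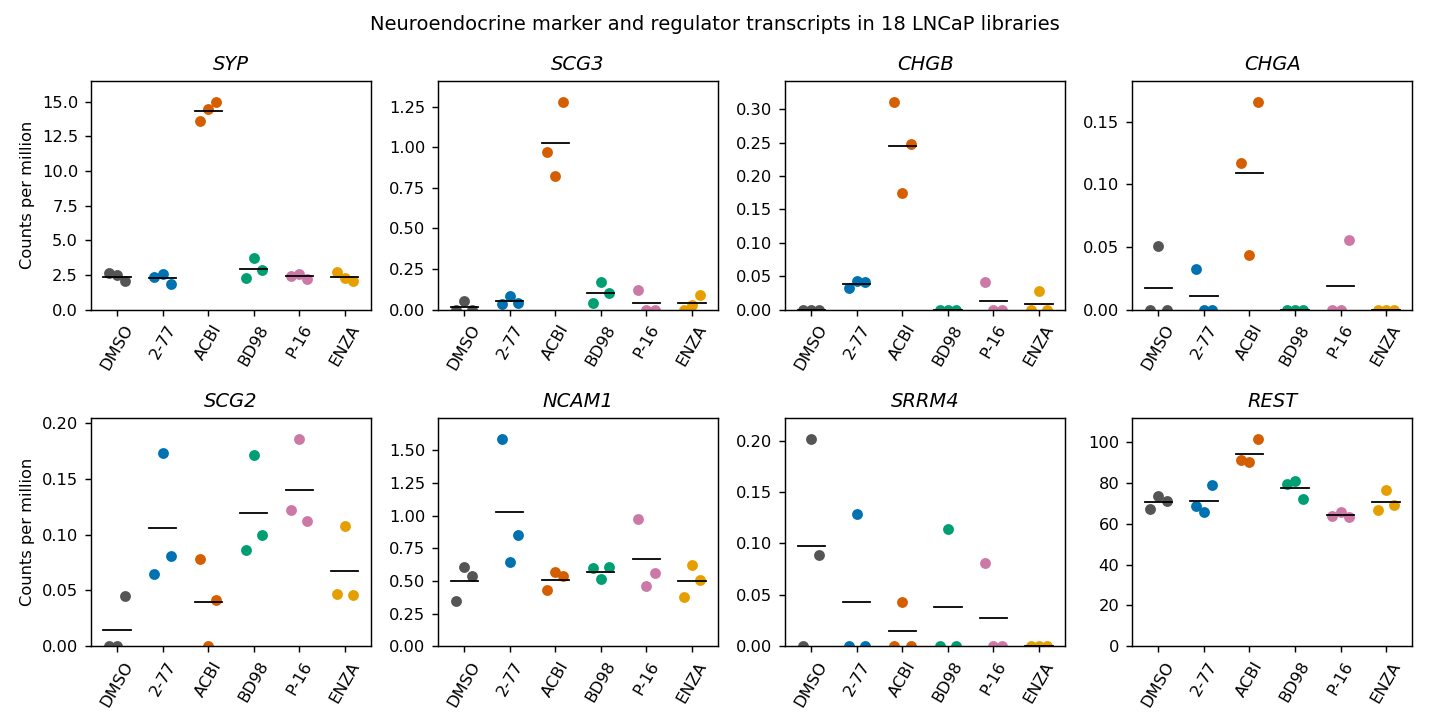
CPM (TMM-scaled, linear axes that start at 0 and differ between panels) of the 8 genes in each of the 18 libraries; each point is 1 library and each line the mean of the 3 libraries of a condition. The ACBI points of SYP, SCG3 and CHGB lie above all others, while CHGA, SCG2 and SRRM4 stay at or under 0.202 CPM in all 18.

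The granin CHGA, a vasostatin precursor measured in serum as a tumour marker, was close to absent in every condition. It had 0, 1 and 0 counts in the DMSO libraries, 1, 0 and 0 with 2-77, 3, 1 and 4 with ACBI, 0 in each BD98 library, 0, 0 and 1 with P-16 and 0 in each ENZA library. In all, 11 counts were found in 18 libraries, and 12 libraries had 0. The pooled ratio of ACBI (8 counts) to DMSO (1 count) was 6.33, with a 95% exact interval of 0.849 to 281 that covers counting error only and includes no difference. With the filter left off, edgeR gave an adjusted p of 0.148.

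CHGB, a granin stored in the same granules, had 0 counts in all 3 DMSO libraries and 8, 4 and 6 counts with ACBI. The libraries of 2-77 had 1, 1 and 1 count, those of P-16 1, 0 and 0, those of ENZA 0, 1 and 0, and all BD98 libraries had 0. The ACBI libraries lay above every other library. Pooled, the 18 ACBI counts were 0.239 CPM (95% exact Poisson interval 0.142 to 0.378). That was 4.75-fold the level of DMSO set at the floor of 3 counts over the group. This fold is not a lower bound, as the same interval for the 0 counts in DMSO reached 0.0618 CPM. CHGB did not pass the filter, and with the filter left off edgeR gave an adjusted p of 0.00168 for ACBI against DMSO. DESeq2 gave an adjusted p of 0.0149.

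SCG2, the precursor of secretoneurin, had 0, 0 and 1 counts in DMSO and 2, 0 and 1 with ACBI. It had 2, 4 and 2 counts with 2-77, 2, 3 and 3 with BD98, 3, 4 and 2 with P-16 and 1, 4 and 1 with ENZA. The 3 pooled counts with ACBI were fewer than the 6 to 9 with each other compound. The pooled ratio to DMSO was 8.29 (1.15 to 363) for P-16, 7.02 (0.941 to 312) for BD98, 6.1 (0.818 to 271) for 2-77 and 4.49 (0.545 to 206) for ENZA, each against 1 count. With the filter left off, the P-16 contrast had an adjusted p of 0.135 by edgeR, so none of these passed.

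SCG3 binds CHGA and cholesterol-rich granule membrane during granule formation. It had 0, 1 and 0 counts in DMSO and 25, 19 and 31 with ACBI, which is 0.971, 0.826 and 1.28 CPM. The other compounds gave 1, 2 and 1 counts (2-77), 1, 3 and 3 (BD98), 3, 0 and 0 (P-16) and 0, 1 and 2 (ENZA). Every ACBI library was above every other library, and no other library exceeded 0.171 CPM. The pooled ratio of ACBI (75 counts) to DMSO (1 count) was 59.4, with an exact interval of 10.3 to 2380. The fitted log2 fold change was 5.55 ± 0.807 (SE, n = 3), a value that depends on the prior count, with an adjusted p of 4.92e-07. The fold rests on 1 DMSO count: without DMSO replicate 2, which held it, the log2 value was 7.62. With all libraries SCG3 ranked 4 of 15422 genes by fold change in that contrast. It passed the filter through the ACBI libraries alone, so neither the call nor this rank adds support. For BD98, with 7 pooled counts, the log2 fold change of 2.24 ± 1.29 had an adjusted p of 0.154.

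**Figure D2:**
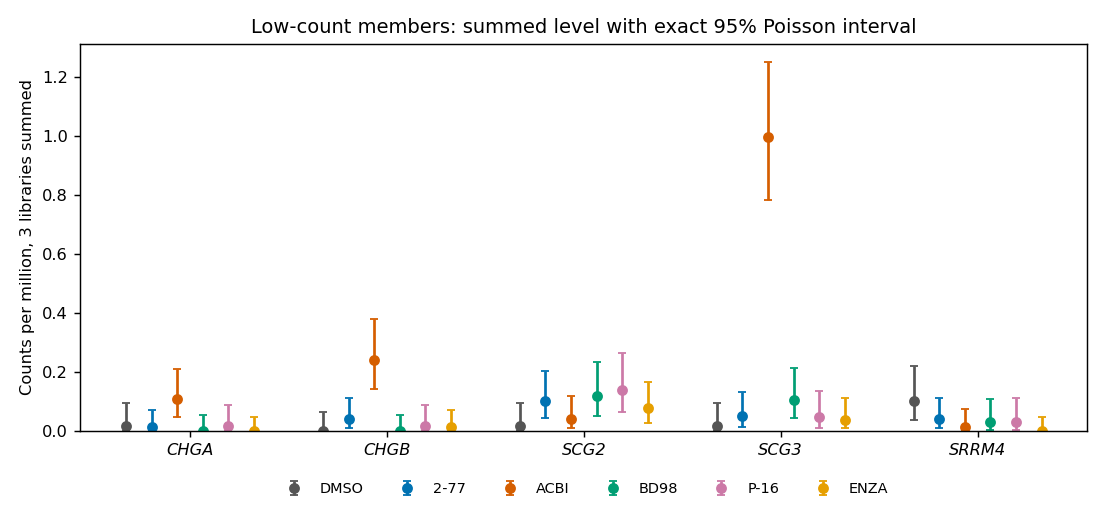
Pooled CPM over the 3 libraries of each condition for CHGA, CHGB, SCG2, SCG3 and SRRM4, with 95% exact Poisson intervals as bars that cover counting error only. The ACBI intervals of SCG3, 0.783 to 1.25 CPM, and CHGB, 0.142 to 0.378 CPM, lie above those of the other conditions, while the intervals of SCG2 and SRRM4 overlap between conditions.

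SYP, the integral membrane protein synaptophysin of small vesicles, was present in every library and rose with ACBI. Its level was 2.62, 2.48 and 2.05 CPM in DMSO and 13.6, 14.5 and 15 CPM with ACBI. The remaining libraries lay between 1.87 CPM (2-77) and 3.7 CPM (BD98), with none near the ACBI values. The rise with ACBI was 6.06-fold, a log2 fold change of 2.60 ± 0.156 (SE, n = 3; 95% interval 2.28 to 2.92), with an adjusted p of 3.67e-15, and it ranked 118 of 15422 genes. The log2 difference from DMSO was -0.07 for 2-77 (-0.45 to 0.30), 0.30 for BD98 (-0.07 to 0.67), 0.03 for P-16 (-0.35 to 0.41) and -0.01 for ENZA (-0.38 to 0.37). Adjusted p-values for these 4 were 0.788, 0.176, 0.928 and 0.979, and changes inside these intervals were not excluded. The gene SYP-AS1 on the opposite strand had 2, 1 and 1 counts with ACBI, 1 in an ENZA library and 0 in all others, including DMSO. How reads in the overlap were assigned is not known, so their share in the 334 to 363 counts of SYP with ACBI was not tested.

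In direct contrasts, SYP with ACBI was above BD98 by 2.30 ± 0.148 on the log2 scale (adjusted p = 2.2e-14), above P-16 by 2.57 (3.4e-15) and above ENZA by 2.61 (1.53e-15). The difference of 2-77 minus ACBI was -2.67 (9.14e-16). By mean level the order for SYP was ACBI, BD98, P-16, DMSO, ENZA and 2-77, and the ACBI to BD98 step was the one neighbouring step that passed the test. SCG3 had the order ACBI, BD98, 2-77, P-16, ENZA and DMSO, and the first step alone passed, by 3.30 ± 0.563 (adjusted p = 6.67e-06). As SCG3 passed the filter through the ACBI libraries alone, that step had to differ and adds no support.

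NCAM1, the cell adhesion molecule CD56, was low, and rose with 2-77. It had 0.349, 0.607 and 0.535 CPM in DMSO and 1.59, 0.647 and 0.853 CPM with 2-77, so all 3 treated libraries were above all controls, replicate 1 by far the most. The other conditions lay between 0.376 and 0.976 CPM. The log2 fold change was 1.06 ± 0.376 (SE, n = 3; 95% interval 0.29 to 1.83), 2.09-fold, with an adjusted p of 0.0249. Without 2-77 replicate 1 the value was 0.58 with an adjusted p of 0.3, without DMSO replicate 1 it was 0.88 (0.102), and without DMSO replicate 3 it was 1.11 (0.0564). DESeq2 gave 1.05 with an adjusted p of 0.0701. The call rested on single libraries. Antisense genes overlap NCAM1, SCG3 and SRRM4 as well as SYP, and whether the counting used strand is not given in the sources used here. NCAM1 with ACBI differed from DMSO by 0.02 (-0.86 to 0.89; adjusted p = 0.976). Adjusted p-values were 0.728, 0.501 and 0.95 for BD98, P-16 and ENZA. 2-77 was above ACBI by 1.05 ± 0.361 (adjusted p = 0.0114) and did not pass against BD98 (0.86; 0.0515), P-16 (0.63; 0.211) or ENZA (1.02; 0.0978). No neighbouring step in the order 2-77, P-16, BD98, ACBI, ENZA, DMSO passed.

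SRRM4 was scarcely detected. It had 0, 4 and 2 counts in DMSO, 0, 3 and 0 with 2-77, 0, 1 and 0 with ACBI, 0, 2 and 0 with BD98, 2, 0 and 0 with P-16 and 0 in each ENZA library. All conditions overlapped, and 12 of 18 libraries had 0. The pooled ratio to DMSO (6 counts) was 0.132 with ACBI (0.00287 to 1.09). With the filter left off, ENZA against DMSO had an unadjusted p of 0.0235 and an adjusted p of 0.0785 by edgeR. That contrast did not pass, and at this depth a change was not excluded.

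REST was the most abundant of the genes per length and rose slightly with ACBI. Its level was 67.3, 73.4 and 71 CPM in DMSO and 91.1, 90.2 and 101.7 CPM with ACBI, with no overlap. It was 68.8, 65.8 and 79.1 CPM with 2-77, 79.4, 80.9 and 72.2 with BD98, 63.7, 65.6 and 63.3 with P-16 and 66.5, 76.5 and 69.1 with ENZA. The rise with ACBI was 1.34-fold, with an adjusted p of 3.07e-06. The log2 fold change was 0.42 ± 0.0649 (SE, n = 3, 95% interval 0.28 to 0.55). By fold change REST ranked 3736 of 15422 genes in that contrast, where 72.0% of all genes were called. P-16 lay below all DMSO libraries, at -0.14 (-0.27 to 0.00), but did not pass, with an adjusted p of 0.15. BD98 was at 0.13 (-0.00 to 0.27; 0.103), 2-77 at 0.01 (-0.12 to 0.15; 0.904) and ENZA at 0.01 (-0.13 to 0.14; 0.945). ACBI was above BD98 by 0.29 ± 0.064 (adjusted p = 0.000324), above P-16 by 0.55 (3.66e-08) and above ENZA by 0.41 (3.39e-06), and 2-77 was below ACBI by a log2 difference of -0.41 (3.89e-06). BD98 was above P-16 by 0.27 ± 0.0659 (0.00183). The repressor and the transcripts of SYP and SCG3 were therefore higher in the same libraries. CPM by library totals (without TMM factors) per kilobase of exon put REST at 8.8 ± 0.378 (SD, n = 3), SYP at 0.455 ± 0.058, NCAM1 at 0.0389 ± 0.0104 and SCG3 at 0.00507 ± 0.00878 in DMSO. With ACBI these levels were 11.4 ± 0.294, 2.67 ± 0.0962, 0.0388 ± 0.00544 and 0.298 ± 0.0556, so SCG3 passed above NCAM1 and REST remained the highest.

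**Figure D3:**
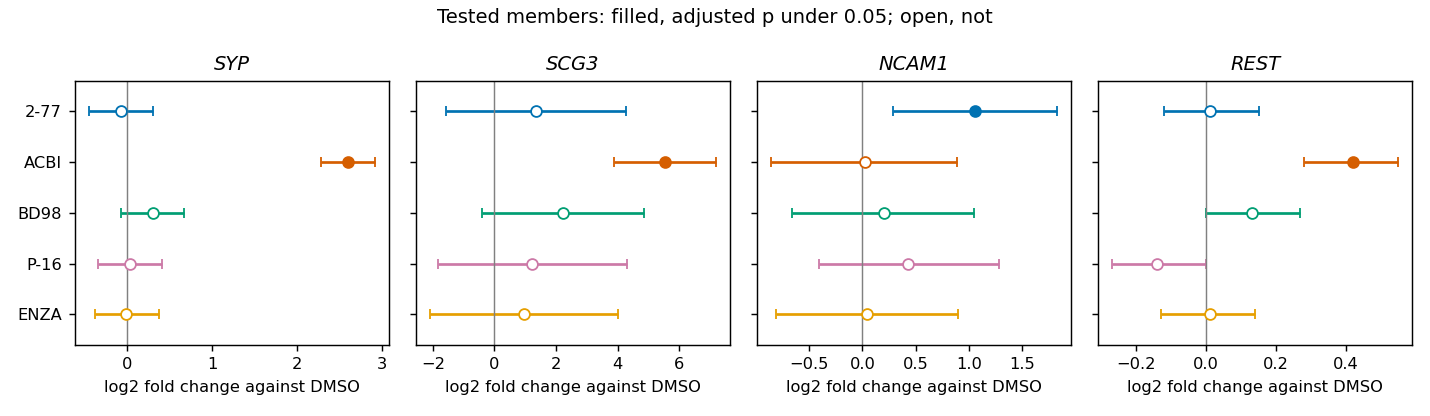
Log2 fold change against DMSO of the 4 tested genes for each compound, with 95% intervals as bars and the threshold call as the marker fill. SYP at 2.60, SCG3 at 5.55 and REST at 0.42 are called with ACBI and NCAM1 at 1.06 with 2-77; all other intervals include 0.

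Over the pairs of compounds, the 4 tested genes gave calls as follows. Between 2-77 and ACBI, 1 was higher and 3 were lower with 2-77 (70.2% of all genes called). ACBI was higher for 3 genes against each of BD98 (69.6%), P-16 (71.5%) and ENZA (70.1%). SCG3 is among these and among the 3 lower with 2-77, and its calls add no support, given how it passed the filter. BD98 was higher than P-16 for 1 gene, REST (43.6%). None passed between 2-77 and BD98 (42.0%), P-16 (22.4%) or ENZA (5.54%), between BD98 and ENZA (42.5%) or between P-16 and ENZA (21.3%). These contrasts share libraries with each other and with those against DMSO. Without ACBI replicate 3 the log2 fold change against DMSO was 2.58 for SYP (adjusted p = 5.06e-16), 5.36 for SCG3 (2.48e-06) and 0.37 for REST (1.89e-05).

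REST acts through partner proteins, and the 19 genes for REST corepressors and REST turnover were all measured. With ACBI 12 rose and 3 fell, with a median log2 fold change of 0.33 over the list against -0.01 over all genes, where 72.0% of all genes were called and 35.4% rose. HDAC1, a catalytic subunit of the recruited deacetylase, rose from 180.6 to 268.5 CPM (0.57 ± 0.0337, adjusted p = 2.47e-15). PHF21A (BHC80) rose by 0.89 on the log2 scale. HDAC2 and KDM1A, also catalytic and named after their values were seen, both fell by 0.34 with ACBI (adjusted p = 5.17e-10 and 1.02e-07). EHMT1 and EHMT2, likewise named after their values were seen, were at 0.42 (adjusted p = 1.04e-09) and 0.09 (0.113) with ACBI. With BD98 12 rose and 4 fell (median 0.16; 49.0% of all genes called), and with 2-77 8 rose and 3 fell (median 0.09; 40.7%). P-16 had 3 up and 2 down (median 0.00; 24.0%) and ENZA 5 up and 3 down (median 0.05; 36.3%). HMG20B, a subunit of the KDM1A complex, fell by 0.31 with 2-77, by 0.55 with BD98, by 0.26 with P-16 and by 0.31 with ENZA, and was at 0.09 with ACBI (adjusted p = 0.0542). RCOR2, a scaffold related to CoREST, rose by 0.77 with 2-77, 0.96 with BD98, 0.44 with P-16 and 0.42 with ENZA, and was at -0.00 with ACBI (adjusted p = 0.982). Without ACBI replicate 3, 15 rose and 3 fell with ACBI, while the median was 0.34.

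Among 26 classical REST target genes, 23 had a row and 14 were tested. With ACBI 9 rose and 3 fell, at a median of 0.85, where 72.0% of all genes were called and 35.4% rose. Among the 9, CHRM4, named after its values were seen, passed the filter through the ACBI libraries alone. CPLX1, a complexin of the vesicle fusion machinery, rose from 24.2 to 116.7 CPM (2.26 ± 0.0704, adjusted p = 3.81e-22). DISP2 rose by 2.80 ± 0.117, TUBB3 (neuronal tubulin) by 1.53 and MAPK8IP2 by 1.04. Without ACBI replicate 3 the split was 9 up and 2 down, with a median of 0.93. The other compounds moved the targets in both directions: 3 up and 4 down with 2-77 (median 0.03; 40.7% of all genes called), 4 and 2 with BD98 (0.13; 49.0%), 2 and 1 with P-16 (0.05; 24.0%) and 2 and 5 with ENZA (-0.18; 36.3%). VGF, a granule peptide precursor, was among the 3 that fell with ACBI (-0.93, from 7.01 to 3.69 CPM, adjusted p = 1.59e-06), and it also fell with 2-77 (-1.09), BD98 (-1.09) and ENZA (-0.99). With P-16 it was at -0.37 (adjusted p = 0.0562).

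Of 18 genes for granule cargo and prohormone processing, 12 were tested, and with ACBI 4 rose and 4 fell at a median of 0.05, a share called near the 72.0% of all genes. CPE, the carboxypeptidase that trims prohormones, rose from 92.5 to 309.1 CPM (1.74 ± 0.0468, adjusted p = 9.83e-24). PAM, the amidating enzyme, rose by 1.19, RAB27B by 1.09, and SYT7 fell by 0.62 on the log2 scale. With 2-77 3 rose and 4 fell (median -0.05; 40.7% of all genes called), with BD98 3 and 6 (-0.37; 49.0%), with P-16 3 and 4 (-0.04; 24.0%) and with ENZA 3 and 5 (-0.17; 36.3%). CADPS2, which primes dense-core granules for release, fell with all 5 compounds, by 0.68 on the log2 scale with ACBI (adjusted p = 7.19e-07), 1.44 with 2-77, 2.14 with BD98, 1.12 with P-16 and 1.50 with ENZA. RAB3B, a small GTPase of vesicle release, fell by 0.80 with 2-77, 0.48 with BD98, 0.84 with P-16 and 1.13 with ENZA, and was at 0.06 with ACBI (adjusted p = 0.252). Without ACBI replicate 3 the split was again 4 up and 4 down, with a median of 0.08.

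Further markers of the lineage went both ways with ACBI. Of 18 genes, 13 had a row and 5 were tested, and with ACBI 2 rose and 2 fell, at a median of -0.30 (72.0% of all genes called). Without ACBI replicate 3, 6 genes were tested and the median was 0.05. DDC, which makes dopamine and serotonin from their precursors, went from 50.9 CPM in DMSO to 0.844 CPM with ACBI, a log2 fold change of -5.91 ± 0.0996 (adjusted p = 1.31e-28). It rose with 2-77 (1.22), P-16 (1.05) and ENZA (1.65), and fell by 0.43 with BD98. ENO2, the enolase measured as neuron-specific enolase, rose with all 5 compounds, from 40.8 to 112.6 CPM with 2-77 (1.47 ± 0.0512, adjusted p = 6.14e-20) and by 1.14 with P-16, 0.79 with ACBI, 0.73 with BD98 and 0.47 with ENZA. The list had 2 up and 1 down with 2-77 (median 0.03; 40.7% of all genes called), 2 up and 2 down with BD98 (-0.37; 49.0%), 2 up with P-16 (0.44; 24.0%) and 3 up with ENZA (0.34; 36.3%).

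Of 22 lineage transcription factors, 15 had a row and 5 were tested. HES6, a relative of the HES repressors, had the largest change of the 5 with ACBI, from 183.7 to 5731.6 CPM (4.96 ± 0.0561, adjusted p = 2.85e-29), and MYT1 and ONECUT2 rose by 0.87 and 0.47. SOX11 fell by 0.42, so 3 rose and 1 fell, at a median of 0.47 (72.0% of all genes called), and the split was the same without ACBI replicate 3, at a median of 0.50. HES6 fell by 0.81 with 2-77, 1.66 with BD98, 0.75 with P-16 and 1.29 with ENZA. The list had 1 up and 1 down with 2-77 (median -0.03; 40.7%), 2 down with BD98 (-0.21; 49.0%), 1 down with P-16 (-0.03; 24.0%) and 1 down with ENZA (0.08; 36.3%).

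Neural splicing regulators, the class of SRRM4, had 9 of 15 genes tested. PTBP1, the repressor of neural exons, was lower with every compound, from 382.9 to 211.1 CPM with ACBI (-0.86 ± 0.0344, adjusted p = 1.88e-19), with log2 fold changes of -0.22, -0.17, -0.10 and -0.27 for 2-77, BD98, P-16 and ENZA. NOVA1 rose with 2-77 (0.40), BD98 (0.36), P-16 (0.42) and ENZA (0.39), and was at 0.19 with ACBI (adjusted p = 0.0697). CELF4 rose by 2.08 and CELF5 by 2.45 with ACBI, from 0.414 and 0.18 CPM. The list had 4 up and 2 down with ACBI (median 0.19; 72.0% of all genes called), and the same split without ACBI replicate 3 (median 0.15). It had 4 and 3 with 2-77 (0.28; 40.7%), 3 and 3 with BD98 (-0.17; 49.0%), 2 and 2 with P-16 (0.07; 24.0%) and 2 and 3 with ENZA (0.24; 36.3%).

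**Figure D4:**
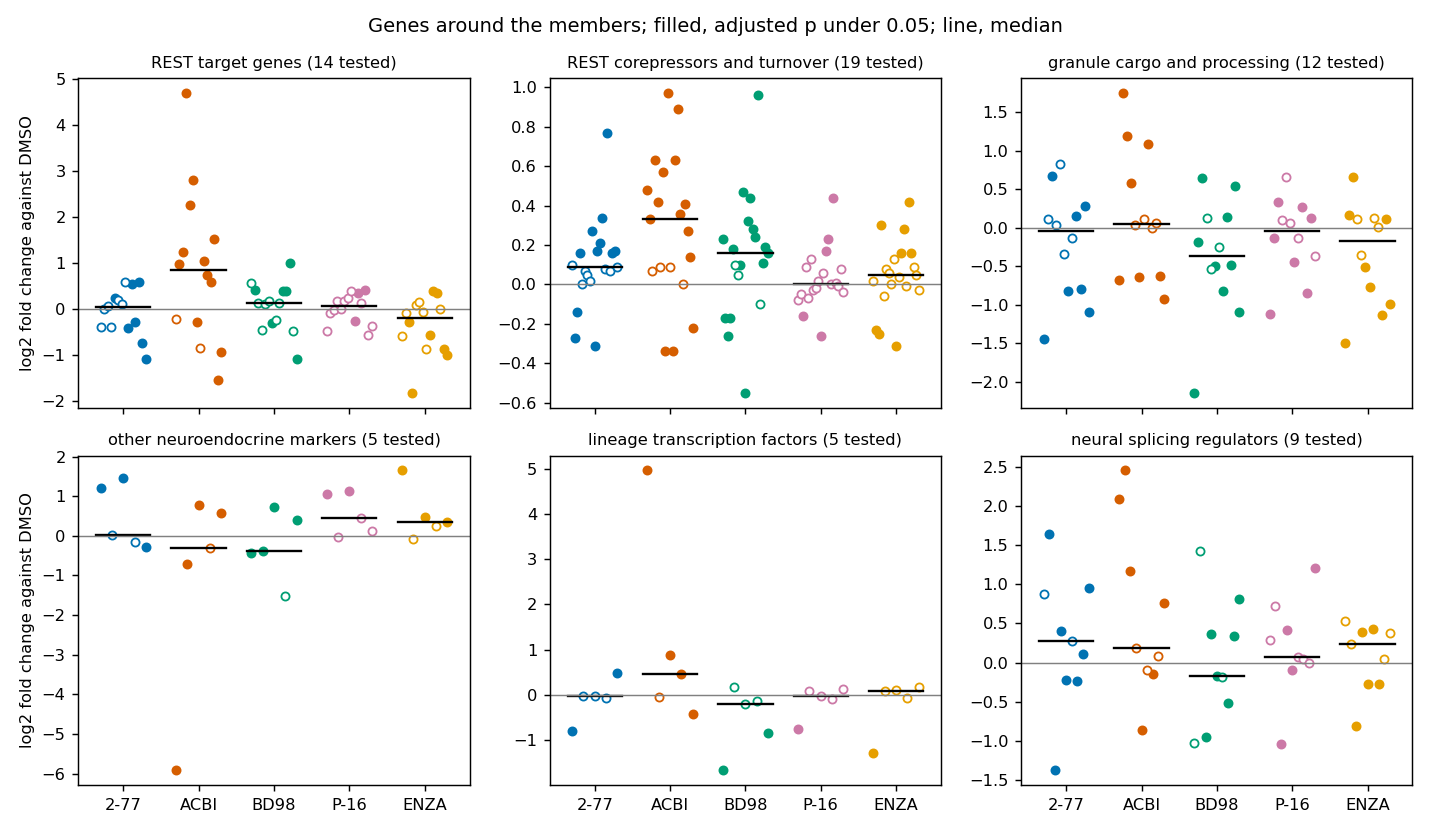
Log2 fold change against DMSO of each tested gene on the 6 lists, by compound, on axes that differ between panels; filled points have an adjusted p under 0.05 and lines are medians. The ACBI median is 0.85 for REST targets and 0.33 for corepressors, and HES6 at 4.96 is the top point among the transcription factors.

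Luminal markers moved in the same libraries as these genes. Their summed level was 10995.4 to 11100.7 CPM in DMSO and 5706.4 to 6505.0 CPM with ACBI, 5674.9 to 5824.0 with 2-77, 6415.5 to 6540.0 with ENZA, 7833.9 to 7983.0 with BD98 and 7750.9 to 7826.5 with P-16. With ACBI 6 of 11 fell (72.0% of all genes called), among them KLK3, which went from 4276.0 to 653.8 CPM, and 3 rose, or 4 without ACBI replicate 3. The ranges of the sum with 2-77 and with ACBI overlapped. The part of these markers in the results was not tested.

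Across the 18 libraries, the genes most like each tested gene in log2 CPM were named by their correlation, as a description. For SYP they were CCDC115, RNF150 and RNFT1 (r = 0.98 each), falling to 0.53, 0.60 and 0.53 over the 15 libraries without ACBI, and 811 of 11134 genes had r over 0.9. For SCG3 they were MAEA, RAB29 and USP33 (0.96 each; 0.74, 0.72 and 0.66 without ACBI). For REST they were SMIM10L1 (0.96), CMTM6 (0.96) and ANKIB1 (0.95), with 0.88, 0.87 and 0.87 without ACBI. NCAM1 had none over 0.9, the nearest being PDZD4 (0.66), ATP6AP1L (0.65) and UST (0.65). All points share the same libraries, depth and the ACBI separation.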

How the data were processed

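The submitters' processing notes name the build hg38 and, as tools of the authors, Partek, DESeq2 and STAR, with no versions. The kit was stranded, and the counting program, its strand setting and any filter are not given in the sources used here. The deposited table holds expected counts, that is estimated counts per gene that need not be whole, and 30.3% of its values were off a whole number by more than 0.005. Columns headed SCO277 were read as 2-77 and those headed PB_16 as P-16. After rounding, tests were run in edgeR 4.0.16 (R 4.3.3). filterByExpr with a minimum count of 10 left 15422 of 20145 genes, TMM factors scaled the libraries, and 1 quasi-likelihood model with robust settings took in the 6 groups, leaving 12 residual degrees of freedom. P-values were two-sided and adjusted by Benjamini-Hochberg over all genes tested, with a threshold of 0.05. Ratios of pooled counts have exact intervals at 95%, and they and the floor of 3 counts cover counting error only. Levels per length used the union of GENCODE exons of each gene.

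The 9 genes, the 6 gene lists (114 genes, 4 of them on 2 lists) and the 4 marker lists were chosen with earlier results of these data known. All 9 genes are named, with up to 4 genes per list and compound that had the smallest p among those called, and the 3 genes most correlated with each tested gene at a mean of at least 4 CPM. Some genes that this rule names are not reported here. Same-numbered libraries were treated as unpaired. In simulated data for ACBI against DMSO over 14718 genes, the test found 40% of genes set to a fold of 1.25, 70% at 1.5, 86% at 2 and 96% at 4, while 18 of its 164 calls fell on genes left unchanged. That fit held the ACBI and DMSO libraries alone. It changed 50 genes at each fold, none with the fewest counts, whereas 72.0% of genes were called in the data. The rates therefore need not hold for the reported fit. Alternatives were DESeq2 1.42.0, RLE factors, library totals, removal of ribosomal RNA genes, no filter or a stricter one, only the groups compared, a replicate block and each library left out in turn. Figures were drawn with matplotlib 3.10.9.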

Additional observations from a re-analysis of the deposited data

How the results depend on the processing

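Of 505 values for the 4 tested genes under the alternatives, 497 stayed on the same side of the threshold as in the reported fit. No called value changed sign. Many of these values came from leaving out a library of neither group compared, so the share says little about the calls themselves. Values that did not pass changed sign in places, such as SCG3 with P-16 (-2.06 to 3.31), NCAM1 with ENZA (-0.18 to 0.2) and SYP with 2-77 (-0.18 to 0.04). The count of these genes called with BD98 was 0 and became 1 (REST) with library totals and with only the 2 groups compared, and it ran from 0 to 1 when each library was left out, with REST called without BD98 replicate 3. The count with P-16 was 0 and became 1 (REST, lower) with only the 2 groups compared. The count with 2-77 was 1 (NCAM1) and became 0 with the stricter filter, which removed NCAM1, and with DESeq2, and it ran from 0 to 1 when each library was left out. The cause of the other changes was not tested. NCAM1 with 2-77 ranged from 0.58 to 1.29 in log2 fold change and was called in 21 of 25 alternatives that could test it. Against DMSO with ACBI, SYP ranged from 2.50 to 2.67, SCG3 from 5.00 to 7.62 and REST from 0.37 to 0.45. All of these were called under each alternative that could test them. As SCG3 passed the filter of the reported fit through the ACBI libraries alone, its calls here add no support. With the replicate block, the log2 fold change was 2.60 for SYP, 5.55 for SCG3 and 0.42 for REST with ACBI and 1.02 for NCAM1 with 2-77 (adjusted p = 0.038), and the block changed no call. The numbers were not taken as pairs, since residuals of 1 of 45 same-numbered pairs correlated above 0.1. Depth limits CHGA, CHGB, SCG2 and SRRM4, each with at most 8 counts in a library.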
